A study of Mus musculus with 8 samples.

Results

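Hyaluronan and the proteins that make, bind and cut it were followed in SV-LECs through 10 genes: the hyaluronan synthases Has1, Has2 and Has3, the large hyaluronan-binding proteoglycans aggrecan (Acan) and versican (Vcan), the link proteins Hapln1 and Hapln3, the hyaluronidases Hyal1 and Hyal2, and the hyaluronan receptor Cd44. The members were chosen by name and role, with earlier results of these data known, and they are 10 of the 55471 genes in the count table. SV-LEC is an SV40-immortalized mouse line that was derived from mesenteric adventitial tissue and is described as lymphatic endothelial. The line was cultured in high-glucose DMEM with 10% FBS, and 4 samples were left untreated while 4 were exposed to 10 ng/ml TGFβ1 for 72 h. The paper's sequencing methods do not state the serum level during the 72 h, and its conditioned medium was made in low serum. Poly(A) RNA was read from one end over 75 bases, and the 8 libraries held between 18952504 and 26386941 counts. The comparison asks which RNAs of the hyaluronan system differed between TGFβ1-treated and non-treated cells.

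Hyaluronan is a long unbranched sugar polymer that is made at the plasma membrane, where a synthase joins 2 nucleotide sugars in alternation and pushes the growing chain out of the cell. Outside the cell it binds lecticans such as aggrecan and versican, whose core proteins carry chondroitin sulfate chains, and link proteins hold these complexes together. Hyaluronidases and exoglycosidases break the polymer down, and CD44 ties it to the cell surface. In lymphatic vessels hyaluronan is carried away from tissues and is bound by the receptor LYVE1.

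The libraries separated by treatment. Pearson correlations of log CPM (counts per 1000000 of normalized library size) lay between 0.9957 and 0.9977 within groups and did not exceed 0.953 between groups. The study describes the 4 samples of a group as technical replicates, so every error and FDR below refers to the spread between such samples. The TGFβ response genes Ccn2, Smad7 and Skil were higher after TGFβ1, with log2 fold changes of 2.06, 0.89 and 0.63, and Tgfbi held at most 3 counts in any library. Of 12 lymphatic endothelial markers 5 had enough counts to be tested, and Flt4, Kdr and Nrp2 were higher after TGFβ1, Pdpn was lower and Tek did not pass the test. The defining markers Prox1, Lyve1, Pecam1, Cdh5, Tie1, Emcn and Ccl21a were at or near 0, with at most 5 counts in any library. The fibroblast and mesenchymal list was abundant, with a summed level of 11011.7 to 14013.1 CPM in untreated and 12191.2 to 13756.3 CPM in TGFβ1-treated libraries. Among these genes Col1a1 and Pdgfrb rose, while Dcn, Pdgfra, Thy1 and Col3a1 fell. Of 6 leukocyte markers only Cd68 was tested, which was higher by 1.19 on the log2 scale, and Ptprc and Adgre1 held at most 1 count in any library. Of 5 epithelial markers 3 were tested: Krt8 and Krt18 were higher at low levels (Krt18 passed the low-count filter through the TGFβ1 group alone), Krt19 was lower, and Epcam held at most 7 counts in any library. The part of these differences in the results below was not tested.

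Across the members the direction was upward. By edgeR's likelihood ratio test with a Benjamini-Hochberg FDR under 0.05 over 13818 tested genes, 8 members were higher after TGFβ1, each with a log2 fold change above 1 and with all 4 treated libraries above all 4 untreated libraries. Of all tested genes 37.6% were called higher, 38.0% were called lower, 10.9% were called higher with a log2 fold change above 1, and 34.7% had treated libraries entirely above untreated ones. Acan, Hapln3 and Has3 passed the low-count filter through the TGFβ1 group alone and so had to differ. The remaining 5 tested members, Vcan, Has2, Hyal1, Hyal2 and Cd44, exceeded the filter in every library. Their median log2 fold change was 2.88, beside a median of -0.01 over all tested genes. The other 2 members, Has1 and Hapln1, had too few counts to be tested. In bulk RNA, more cells that express a gene and more RNA per cell cannot be told apart.

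**Figure D1:**
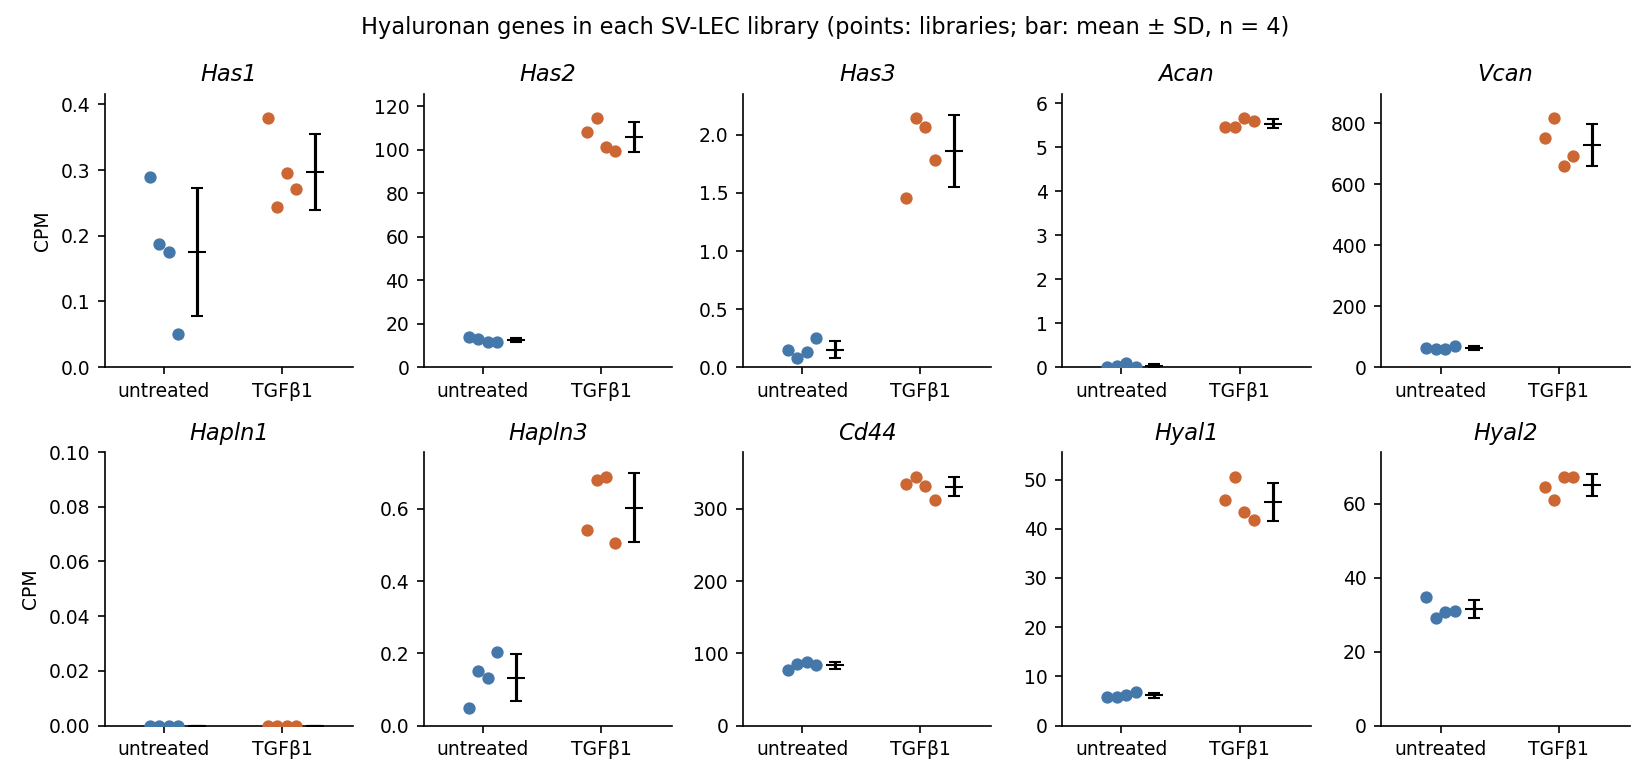
Level of each of the 10 genes in CPM (vertical axes, linear and starting at 0, each panel with its own scale) in the 4 untreated (blue) and 4 TGFβ1-treated (orange) SV-LEC libraries, with the mean ± SD beside the points. The groups lie apart for 8 genes, overlap for Has1, and are at 0 for Hapln1.

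The promoters of Acan, Vcan, Cd44 and Hyal1, members called higher in their classes, are shown here with that of Has1, the synthase that could not be tested, so that their composition and short motifs can be compared. The sequences are RefSeq windows of 250 bases on GRCm38.p6, in the direction of transcription, and 8 of the 10 genes had such a window. Each ends at the base before the RefSeq start, which can differ from the GENCODE gene positions given below. The Acan window ends at 79053225, whereas the GENCODE gene begins at 79053483. The Hyal2 and Hapln1 windows lie within the GENCODE genes, and those of Hyal1 and Has1 reach into them. No window was available for Has2 and Has3, so the comparison does not cover the synthases called higher. Capitals mark CAGAC or its reverse complement GTCTG, the core letters bound by SMAD proteins, and CATTCC, the core letters bound by TEAD proteins. The windows are chr7:79052976-79053225 on the plus strand for Acan, chr13:89742513-89742762 on the minus strand for Vcan, chr2:102901666-102901915 on the minus strand for Cd44, chr9:107576700-107576949 on the plus strand for Hyal1 and chr17:17855189-17855438 on the minus strand for Has1.
Acan: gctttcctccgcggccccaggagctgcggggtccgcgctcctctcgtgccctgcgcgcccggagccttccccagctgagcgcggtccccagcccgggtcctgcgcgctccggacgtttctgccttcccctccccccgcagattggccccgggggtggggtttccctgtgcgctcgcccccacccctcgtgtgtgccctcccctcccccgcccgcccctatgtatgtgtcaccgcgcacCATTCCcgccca
Vcan: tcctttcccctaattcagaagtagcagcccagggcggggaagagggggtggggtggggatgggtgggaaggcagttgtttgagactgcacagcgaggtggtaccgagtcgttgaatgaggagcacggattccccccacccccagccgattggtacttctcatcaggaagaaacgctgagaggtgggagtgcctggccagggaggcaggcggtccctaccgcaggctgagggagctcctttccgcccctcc
Cd44: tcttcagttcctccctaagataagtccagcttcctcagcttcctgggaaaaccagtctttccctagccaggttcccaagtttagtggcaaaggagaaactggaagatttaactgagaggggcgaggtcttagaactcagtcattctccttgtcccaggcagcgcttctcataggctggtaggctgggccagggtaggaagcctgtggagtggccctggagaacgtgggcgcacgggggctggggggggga
Hyal1: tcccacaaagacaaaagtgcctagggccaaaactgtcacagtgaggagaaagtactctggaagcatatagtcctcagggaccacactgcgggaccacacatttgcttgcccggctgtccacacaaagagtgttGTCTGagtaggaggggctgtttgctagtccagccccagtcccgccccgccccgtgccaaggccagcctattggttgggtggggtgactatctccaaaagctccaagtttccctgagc
Has1: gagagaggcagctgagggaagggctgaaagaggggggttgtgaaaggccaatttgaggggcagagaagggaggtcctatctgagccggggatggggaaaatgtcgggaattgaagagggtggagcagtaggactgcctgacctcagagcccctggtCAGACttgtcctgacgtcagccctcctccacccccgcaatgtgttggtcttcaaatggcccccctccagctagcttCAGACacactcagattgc
CAGAC or GTCTG occurred in 42.2% of 32851 windows of this length. Among the members these letters occurred 2 times in Has1 and 1 time each in Hyal1, Hapln1 and Hapln3, and were not found in the windows of Acan, Vcan, Cd44 and Hyal2. CATTCC or GGAATG occurred in 12.6% of windows and in those of Acan, beginning 12 bases before the RefSeq start, and Hyal2. The AP-1 letters TGANTCA, which read the same on both strands, occurred in 6.75% of windows and in none of the 8. TATAAA or TTTATA occurred in 12.4% of windows and in that of Hapln3 alone among the members. No position of these motifs overlapped another in the windows shown. The Acan window was rich in G and C, at 74.4% with 26 CpG dinucleotides, and the Vcan window held 62.4% with 10, against medians of 52.4% and 6 over all windows. These matches describe letters only.

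Has2, a synthase of long hyaluronan chains, carried nearly all of the synthase RNA in both groups. It had 285, 349, 265 and 232 counts in untreated libraries 1 to 4 and 2001, 2352, 2056 and 2564 counts in TGFβ1 libraries 1 to 4. The lowest treated library was far above the highest untreated one. Mean levels were 12.5 ± 1.05 CPM and 106 ± 6.90 CPM (± SD, n = 4), and the log2 fold change was 3.07 (SE 0.0721, likelihood ratio statistic 1848). The FDR of this test was too small to be written, and edgeR's quasi-likelihood test gave an FDR of 5.73e-14.

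Has3, which makes shorter chains, was close to absent in untreated cells. It had 3, 2, 3 and 5 counts in the untreated libraries and 27, 44, 42 and 46 in the treated ones. All treated libraries were higher, but the level stayed low: the mean went from 0.151 ± 0.0746 CPM to 1.86 ± 0.310 CPM. The log2 fold change was 3.64 (SE 0.423). The ratio of summed counts, scaled by library size, was 12.9 with a 95% interval from counting error of 7.35 to 24.8. Has3 passed the low-count filter through the TGFβ1 group alone and so had to differ.

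Has1 held 6, 5, 4 and 1 counts in untreated and 7, 5, 6 and 7 counts in treated libraries. The groups overlapped. The ratio of summed counts was 1.65, with a 95% counting interval of 0.848 to 3.31, so that neither no change nor a rise of the size seen for Hyal2 was outside the interval. Without the low-count filter the log2 fold change of Has1 was 0.68 with an edgeR FDR of 0.223.

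Between genes, levels were compared as CPM per kilobase of exon. On this scale Has2 made up 97.4 to 98.3% of the summed synthase RNA in untreated libraries and 98.4 to 98.8% in treated ones. The summed synthase level went from between 2.79 and 3.33 to between 23.8 and 27.4 CPM per kilobase. Has3 contributed 0.374 to 1.41% before and 0.885 to 1.33% after treatment, ranges that overlapped.

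Has2 and Has3 each overlap a gene on the opposite strand. Has2 (chr15:56665627-56694539, minus strand, GRCm38) shares 182 exon bases with the antisense RNA Has2os, or 0.913% of the 75-base stretches of its transcripts. Has2os, which passed the low-count filter through the TGFβ1 group alone, had a log2 fold change of 2.15 (SE 0.348), with means of 0.256 ± 0.0864 and 1.18 ± 0.281 CPM, and remained far below Has2. Has3 (chr8:106870242-106884566, plus strand) shares 352 exon bases with Chtf8, or 4.41% of its stretches, and Chtf8 did not pass the test, at 2.43 ± 0.386 and 2.75 ± 0.171 CPM. The library kit keeps strand, but whether the counting used it is not given in the sources used here. Without strand, reads from such pairs cannot be told apart.

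Vcan, the versican core protein of loose connective tissue and provisional matrix, had the highest CPM of the members after treatment. It had 1297, 1545, 1378 and 1392 counts in untreated libraries and 13905, 16776, 13397 and 17836 counts in treated ones. The groups were far apart, and the spread within each was small beside the difference. The means of 62.8 ± 5.49 and 730 ± 69.4 CPM gave a log2 fold change of 3.54 (SE 0.0720, likelihood ratio statistic 2047, quasi-likelihood FDR 5.13e-14). By log2 fold change Vcan was number 149 of the 13818 tested genes. Its share of the summed CPM of the 10 members, not scaled by length, went from 30.4 to 34.6% in untreated libraries to 54.4 to 58.5% in treated ones. Vcan has the longest exons of the members, at 14.5 kilobases. Per kilobase its range in treated libraries overlapped that of Cd44.

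Acan, the aggrecan core protein best known from cartilage, was all but undetected without TGFβ1. The untreated libraries held 0, 1, 2 and 0 counts, and the treated libraries held 101, 112, 115 and 144. In treated cells the level was even across libraries, at 5.54 ± 0.0999 CPM, against 0.0312 ± 0.0414 CPM before. The ratio of summed counts was 166, with a 95% counting interval of 56.6 to 810. Acan passed the low-count filter through the TGFβ1 group alone and so had to differ. The fitted log2 fold change was 7.15, number 9 of 13818 tested genes, but it depended on the 3 untreated counts and on the prior count: it was 5.50 with a prior count of 2 and 8.07 without untreated library 3, which held 2 of those 3 counts. Even after this change Vcan RNA exceeded Acan RNA by 60.2 to 77.4 times per kilobase in the treated libraries.

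The link proteins did not share one pattern. Hapln3, a link protein found in many tissues, had 1, 4, 3 and 4 counts in untreated and 10, 14, 14 and 13 counts in treated libraries. The groups did not overlap, with means of 0.133 ± 0.0642 and 0.604 ± 0.0950 CPM, and the log2 fold change was 2.12 (SE 0.468). Hapln3 passed the low-count filter through the TGFβ1 group alone and so had to differ. The ratio of summed counts was 4.49, with a 95% counting interval of 2.36 to 9.26, and Hapln3 was no longer tested when 4 libraries had to reach 1 CPM. Hapln1, the link protein of cartilage, had 0 counts in all 8 libraries. A count of 3, the limit that a count of 0 allows, corresponds to between 0.113 and 0.162 CPM in these libraries, and such limits and intervals cover counting error only.

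The lecticans lie beside link protein genes. Acan (chr7:79053483-79115099, plus strand, GRCm38) and Hapln3 (chr7:79115102-79131018, minus strand) end 2 bases apart, and both were higher after TGFβ1. Their transcripts share no stretch of 75 bases with each other or with any other annotated gene. Of the genes on either side, Mfge8, which encodes a secreted glycoprotein, rose by 0.85 on the log2 scale (SE 0.0437), whereas Isg20 did not pass the test at 0.06 (SE 0.0979, edgeR FDR 0.603). Vcan (chr13:89655312-89742509, minus strand) and Hapln1 (chr13:89539796-89611652, plus strand) are 43659 bases apart, and there Vcan rose while Hapln1 had no counts. The gene on the other side of Vcan, the DNA repair gene Xrcc4, had a log2 fold change of -0.03 (SE 0.0800, edgeR FDR 0.726).

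**Figure D2:**
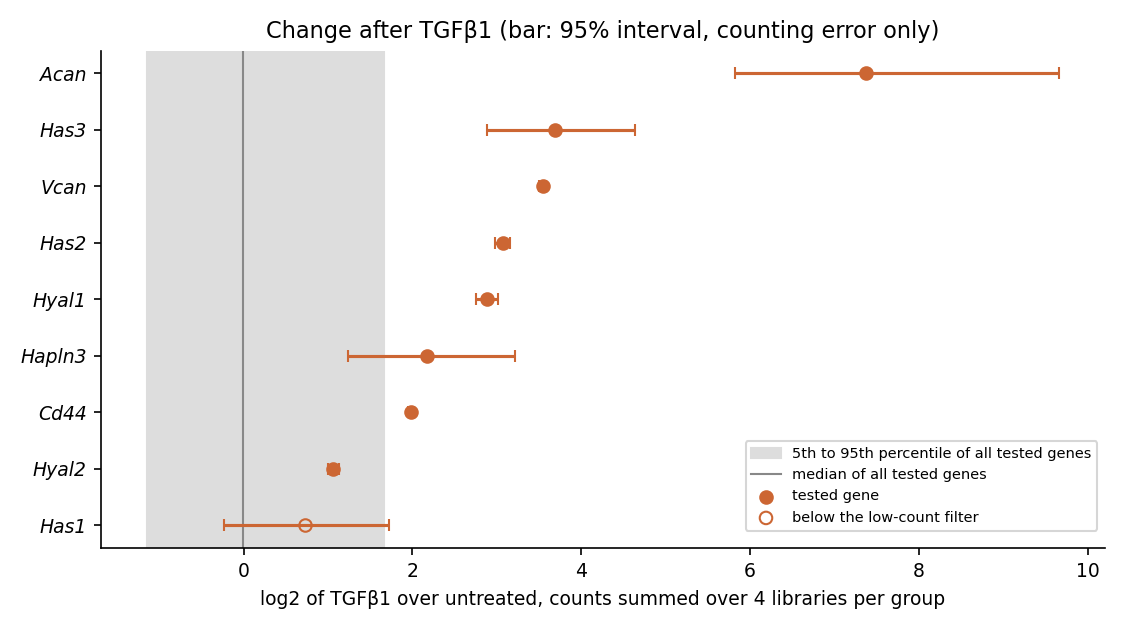
Log2 ratio of TGFβ1 over untreated for 9 members (horizontal axis), from counts summed over the 4 libraries of each group and scaled by library size, with 95% intervals that cover counting error only. The grey band spans the 5th to 95th percentile of log2 fold changes of all tested genes, -1.15 to 1.66, and the open circle marks Has1, which was below the low-count filter. Acan has the widest interval, and Hyal2 is the tested member inside the band.

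Both hyaluronidases rose, by unequal amounts. Hyal2, a membrane-anchored enzyme that makes the first cuts in long chains, had 723, 775, 705 and 610 counts in untreated and 1193, 1254, 1366 and 1730 counts in treated libraries. Mean levels were 31.4 ± 2.43 and 65.0 ± 2.91 CPM, and the log2 fold change was 1.05 (SE 0.0621, edgeR FDR 5.28e-63, quasi-likelihood FDR 4.74e-10). This was the smallest change among the tested members, and 10.2% of all tested genes had a larger one.

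Hyal1, the lysosomal enzyme that acts on shorter fragments, had 119, 155, 141 and 136 counts in untreated and 848, 1038, 882 and 1075 counts in treated libraries. Mean levels were 6.15 ± 0.529 and 45.4 ± 3.83 CPM, with a log2 fold change of 2.88 (SE 0.0910, edgeR FDR 9.97e-237, quasi-likelihood FDR 4.72e-13). Per kilobase, the ratio of Hyal1 to Hyal2 was 0.144 to 0.194 in untreated libraries and 0.542 to 0.722 in treated libraries, ranges that did not overlap.

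The count of Hyal1 is less certain than its error shows. Hyal1 (chr9:107576927-107581710, plus strand, GRCm38) shares 49.0% of its 75-base stretches with Naa80, an N-terminal acetyltransferase gene on the same strand, and 1.20% with Hyal3. Naa80 had means of 10.6 ± 0.570 and 44.5 ± 4.22 CPM and rose by 2.07 on the log2 scale (SE 0.0828, edgeR FDR 3.54e-138, quasi-likelihood FDR 6.39e-12). Reads from the shared stretches could belong to either gene, and how they were counted is not given in the sources used here. If they had been left out, Hyal1 would stand at 3.31 ± 0.285 and 24.4 ± 2.06 CPM per kilobase of unshared exon, and its ratio to Hyal2 in treated libraries would be 1.24 ± 0.164 and above 1 in every library. The order of the hyaluronidases in treated cells thus depends on that setting, which was examined after seeing the data. Hyal3 stayed at 4 to 7 counts per library in both groups. Hyal2 (chr9:107567945-107572779, plus strand) lies 4147 bases upstream of Hyal1 and shares no such stretch, and Tusc2 on its other side did not pass the test at 0.07 (SE 0.0743, edgeR FDR 0.388).

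Cd44, the cell surface receptor for hyaluronan, was the most abundant member per kilobase in untreated cells. It had 1588, 2254, 2032 and 1648 counts in untreated and 6192, 7069, 6746 and 8033 counts in treated libraries. The level went from 83.4 ± 5.08 to 331 ± 13.6 CPM, with no overlap between the groups. The log2 fold change was 1.99 (SE 0.0509, likelihood ratio statistic 1454, quasi-likelihood FDR 1.35e-13). Gene counts do not separate the splice forms of Cd44 (chr2:102811141-102901665, minus strand, GRCm38). Its neighbour Pdhx, a subunit of the pyruvate dehydrogenase complex, fell by 0.26 on the log2 scale (SE 0.0543).

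The order of the members by level per kilobase changed with treatment. In untreated cells it ran from Cd44 at 12.3 ± 0.750 CPM per kilobase through Hyal2 at 9.54 ± 0.736, Vcan at 4.34 ± 0.380, Has2 at 2.96 ± 0.247 and Hyal1 at 1.63 ± 0.140, each apart from its neighbours in the order when the full exon length of Hyal1 is used. Has1, Hapln3 and Has3 followed at 0.0389, 0.0379 and 0.0237 CPM per kilobase, and the ranges of neighbours among these overlapped, as did those of Acan at 0.00418 and Hapln1 at 0. In treated cells Vcan at 50.5 ± 4.80 and Cd44 at 48.8 ± 2.01 stood first, with ranges that overlapped. Has2 followed at 24.98 ± 1.63, then Hyal2 at 19.7 ± 0.882, Hyal1 at 12.02 ± 1.02 and Acan at 0.742 ± 0.0134, all apart on the same terms. Per kilobase of exon not shared with Naa80, Hyal1 would overlap Has2 in both groups and exceed Hyal2 in treated cells. Has2 thus went from below Hyal2 to above it. Has3, Hapln3 and Has1 came next at 0.292, 0.172 and 0.0658 CPM per kilobase, each range apart from the next.

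**Figure D3:**
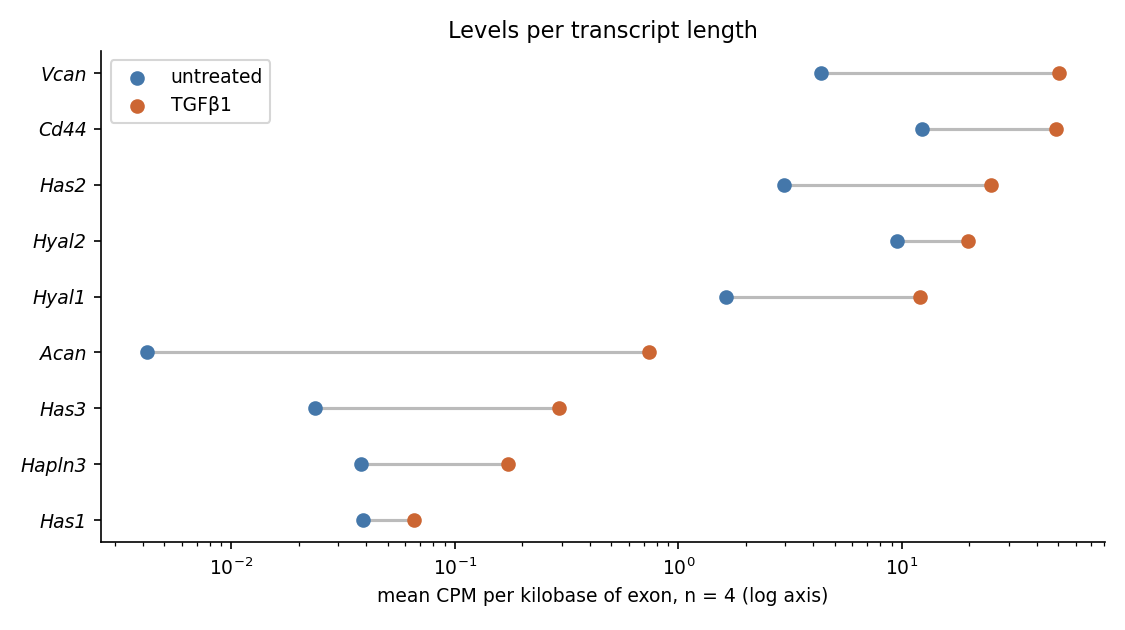
Mean level of 9 members in CPM per kilobase of exon (horizontal log axis, n = 4 libraries per group) in untreated (blue) and TGFβ1-treated (orange) SV-LECs. Hapln1, at 0 in both groups, is not drawn, and Vcan moves from 4.34 to 50.5 while Hyal2 moves from 9.54 to 19.7.

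The enzymes that supply the sugar nucleotides went in both directions. For this and the following lists, the shares over all tested genes were 37.6% called higher and 38.0% called lower. All 7 listed genes were tested, of which 5 were higher and 2 lower, the log2 fold changes ran from -0.76 to 0.56, and their median was 0.22. The enzymes of the hexosamine branch, which leads to UDP-N-acetylglucosamine, included Gfpt1 at 0.56 (SE 0.0427), Pgm3 at 0.49 (SE 0.0575), Gfpt2 at 0.28 (SE 0.0780) and Uap1 at 0.22 (SE 0.0497), all higher, and Gnpnat1, which fell by 0.15 (SE 0.0550). On the branch to UDP-glucuronic acid, Ugp2 fell by 0.76 (SE 0.0473), from 153 ± 4.83 to 90.3 ± 4.32 CPM. Ugdh, which makes UDP-glucuronic acid, was called higher at 0.11 (SE 0.0419, edgeR FDR 0.0109), but its groups overlapped and the call was lost when libraries were scaled by total counts (FDR 0.327).

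Of 9 other genes for hyaluronan breakdown, 4 were tested and 3 of these rose, with a median log2 fold change of 0.51. The lysosomal enzyme Gusb rose by 0.74 (SE 0.0449), from 96.1 ± 4.59 to 161 ± 2.93 CPM. Cemip, a hyaluronan-degrading protein outside the hyaluronidase family, rose by 0.61 (SE 0.0418), from 517 ± 22.8 to 789 ± 13.3 CPM, and its relative Cemip2 rose by 0.40 (SE 0.0554). Hexa, which encodes a lysosomal exoglycosidase subunit, did not pass the test at 0.01 (SE 0.0419). Hyal4, Spam1, Hyal5 and Hyal6 were at or near 0.

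Other hyaluronan-binding genes went in both directions. Of 17 listed, 6 were tested, 2 were higher and 3 lower, and the median was -0.34. Stab1, a scavenger receptor that takes up hyaluronan among other ligands, had 6, 8, 5 and 6 counts in untreated and 103, 139, 93 and 136 counts in treated libraries, a log2 fold change of 4.29 (SE 0.315). It passed the low-count filter through the TGFβ1 group alone and so had to differ, and the median of the other 5 tested genes was -0.54. The lectin-type receptor Layn was called higher at 0.13 (SE 0.0590, edgeR FDR 0.0376), a call that was lost with total counts (FDR 0.329). Itih2, a heavy chain that can be linked to hyaluronan, fell by 2.06 (SE 0.140), and Tnfaip6, the enzyme of that linkage, fell by 0.54 (SE 0.0900). Hmmr, which is best known as a spindle protein of dividing cells, fell by 1.71 (SE 0.0534). Hapln4, a brain link protein, did not pass the test at -0.15 (SE 0.129). The brain lecticans Bcan and Ncan had too few counts to be tested. Bcan held 0, 0, 0 and 0 counts in untreated and 3, 5, 1 and 6 in treated libraries. Ncan held 0, 0, 1 and 0 counts in untreated and 1, 4, 5 and 4 in treated libraries.

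The lectican core proteins carry chondroitin sulfate, and 9 of 14 tested genes for its assembly (19 listed) were higher, 3 were lower, and the median was 0.61. The largest rises were those of the sulfotransferases Chst11, at 1.99 (SE 0.101) and from 14.7 ± 2.34 to 58.7 ± 6.26 CPM, Chst7, at 1.56 (SE 0.328), and Ust, at 1.21 (SE 0.0709), together with Chpf2, a partner of the chain-extending enzymes, at 1.27 (SE 0.0642). Of these, Chst7 was near the low-count filter, at 0.459 ± 0.197 CPM in untreated and 1.40 ± 0.517 CPM in treated libraries. The chain-extending synthase Chsy1 fell by 0.12 (SE 0.0454, edgeR FDR 0.0127). The other 2 lower calls, Csgalnact2 and Xylt2, were named after their values were seen. Their log2 fold changes were -0.10 and -0.16, their groups overlapped, and Xylt2 did not pass the quasi-likelihood test (FDR 0.0530).

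Proteinases that cut lecticans also went in both directions. Of 7 listed ADAMTS genes 6 were tested, 2 were higher and 4 lower, and the median was -0.68. Adamts5, the main aggrecan-cutting enzyme of mouse cartilage, fell by 1.75 (SE 0.0648), from 595 ± 45.9 to 176 ± 13.7 CPM. Adamts20, Adamts1 and Adamts9 fell by 1.14 (SE 0.111), 0.90 (SE 0.0665) and 0.45 (SE 0.0650). Adamts4 rose by 0.65 (SE 0.0615), and Adamts15, with 6, 5, 2 and 5 counts in untreated and 76, 68, 75 and 128 counts in treated libraries, had a log2 fold change of 4.30 (SE 0.369). Adamts15 passed the low-count filter through the treated group alone and so had to differ, and the median of the other 5 tested genes was -0.90.

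Among 9 tested genes for proteins that link, cut or splice CD44 (10 listed), 3 were higher and 5 lower, with a median of -0.09. The membrane proteinase Mmp14, which can shed CD44, rose by 1.17 (SE 0.0384), and the splicing regulator Esrp2 rose by 1.11 (SE 0.0613). The actin linkers did not move together: Msn rose by 0.65 (SE 0.0429), whereas Ezr fell by 1.37 (SE 0.0645) and Rdx by 0.68 (SE 0.0400). The sheddases Adam17 and Adam10 fell by 0.21 (SE 0.0415) and 0.12 (SE 0.0369).

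Aggrecan is a cartilage gene, and 7 of 16 other cartilage matrix genes and regulators had enough counts to be tested. Of these 4 were higher and 2 lower, and the median was 1.01. However, Col2a1 and Comp passed the low-count filter through the TGFβ1 group alone, and Prg4 through the untreated group alone, so that these calls were fixed by the filter. Among the other 4 tested genes 2 were higher and 1 lower, and the median was 0.46. Col2a1, the main collagen of cartilage, had 9, 6, 3 and 6 counts in untreated and 76, 116, 131 and 122 counts in treated libraries, a log2 fold change of 4.26 (SE 0.329). Comp, Col9a3 and Col11a2 were higher by 2.83 (SE 0.483), 2.35 (SE 0.152) and 1.01 (SE 0.184). Matn3 fell by 1.35 (SE 0.157) and Prg4, which encodes the joint lubricant lubricin, fell by 1.70 (SE 0.362). Sox5 did not pass the test at -0.08 (SE 0.0898), and Sox9, the regulator of cartilage formation, stayed at 6 to 16 counts per library. Acan at 5.54 CPM and Col2a1 at 5.23 ± 1.02 CPM were low in treated cells beside Vcan.

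**Figure D4:**
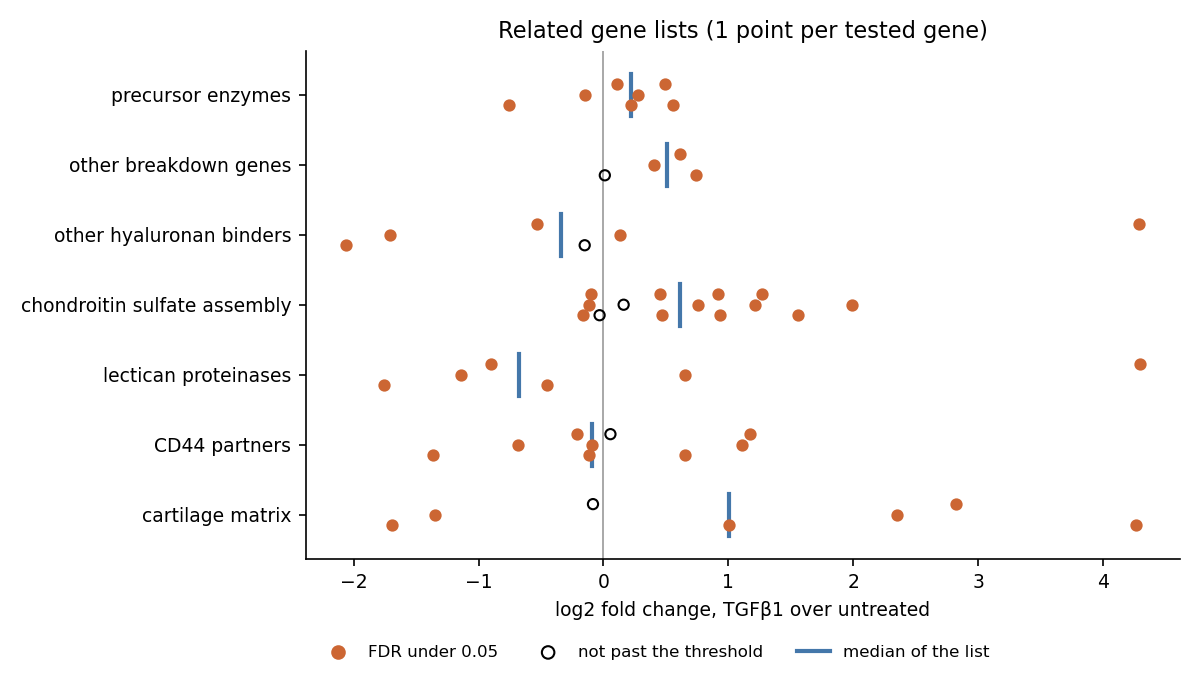
Log2 fold change of every tested gene (points) in 7 related lists, with filled points for genes at an FDR under 0.05 and a blue bar at the median of each list. Medians lie between -0.68 for the lectican proteinases and 1.01 for cartilage matrix, and Stab1, Adamts15, Col2a1, Comp and Prg4 passed the low-count filter through 1 group alone.

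The data are RNA levels of 1 line at 1 dose and 1 time, and hyaluronan itself, its chain length and the proteins were not measured in them.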

How the data were processed

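Stranded poly(A) libraries of 4 untreated and 4 TGFβ1-treated SV-LEC samples were analysed from the table of raw counts per gene that the authors deposited. The submitters' processing notes name bcl2fastq 2.20.0.422, STAR 2.7.3a, featureCounts 1.5.1 and GRCm38. The annotation release and the settings for strand and for reads shared between genes are not given in the sources used here. Groups came from the labels. The table was fitted as a whole in R 4.3.3 with edgeR 4.0.16 (filterByExpr by group, TMM, glmFit, glmLRT, Benjamini-Hochberg over 13818 genes, FDR under 0.05), as the study's methods name edgeR and this test. Fold changes carry a prior count of 0.125, and each SE comes from the model. In a simulation with far fewer known changes than calls in these data, the likelihood ratio test made more false calls than its nominal rate. Its false-call rate in these data is therefore not known, and quasi-likelihood FDRs stand beside some results. Exon lengths, positions and shared 75-base stretches came from GENCODE M21, and promoter windows from RefSeq. A level of 3 counts is 0.113 to 0.162 CPM. The study's methods describe no pairing of samples, so no block was used in the main fit. Between samples of equal replicate number, correlations of deviations lay from -0.27 to -0.04, which cannot settle whether samples were paired.

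The 10 members and all gene lists were chosen with earlier results of these data known. The rule for names took all members, all tested genes of lists with at most 7 tested, otherwise up to 4 per direction with the largest changes whose groups did not overlap, genes that overlap or neighbour a member, TGFβ response genes and markers. Some genes of these lists are not reported here. Alternatives were the quasi-likelihood test, DESeq2 1.42.0, its size factors in edgeR, total counts, 2 other low-count filters, an FDR of 0.01, a prior count of 2, the replicate block and each library left out.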

Additional observations from a re-analysis of the deposited data

Results flagged for a closer look

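Values of 92 genes were examined in 182 groups of 4 libraries for a single library that stood apart, by the gap to its nearest neighbour as a share of the whole range, and 7 exceeded Dixon's 95% critical value. Chance flags about 1 in 20 groups. No member of the hyaluronan system was among them. In untreated cells, Uap1 stood apart in library 4 (share 0.853, highest), Hapln4 in library 2 (0.835, highest) and Isg20 in library 2 (0.841, highest). In TGFβ1-treated cells, Adamts5 stood apart in library 2 (0.886, lowest), Mmp14 in library 3 (0.883, lowest), Col11a2 in library 1 (0.832, highest) and Krt19 in library 2 (0.839, lowest).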

How the results depend on the processing

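The number of members called higher was 8 under every alternative, except 7 where 4 libraries had to reach 1 CPM and Hapln3 was not tested. With each library left out in turn it was 8 throughout. The log2 fold changes of tested members kept their direction and call in all 135 alternative values. For Acan the value lay between 6.82 and 8.07 with 1 library left out, and was 5.50 with a prior count of 2. With the replicate block the members called higher were 8, and over all genes 5075 were higher and 5077 lower instead of 5198 and 5251. With the replicate block the other hyaluronan binders called higher fell from 2 to 1 and the lower chondroitin sulfate genes from 3 to 1; with total counts the binders were also 1. The block changed no call of a member. The related lists were recounted only with the quasi-likelihood test, total counts and the replicate block. Under these settings 39 other counts stayed within 1.5 times. Depth limits Has1, Hapln1, Hapln3, Has3 and untreated Acan, where a few counts carry each value.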
